A study of Mus musculus with 6 samples.

Results

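Collagens are the main structural proteins of the extracellular matrix, and 44 collagen genes were followed in the lateral amygdala of mice. The members are all genes whose deposited symbol reads Col, a number, the letter a and a number, which took 44 of the 50383 gene IDs in the tables. They were placed by textbook class, and not by any measured value, into 11 fibrillar collagens, 8 basement membrane collagens (types IV, XV and XVIII) and 25 other collagens. The members of that last class were 9 fibril-associated, 6 beaded filament, 3 short-chain, 4 transmembrane, 1 anchoring fibril and 2 remaining genes.

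A collagen molecule is a triple helix of chains rich in glycine and proline, assembled in the endoplasmic reticulum and, for most types, secreted. Fibrillar collagens, above all types I and III, are laid down by fibroblasts in the meninges, around larger vessels and in fibrotic scar, whereas type IV collagen forms the sheet-like network under the endothelium of every brain vessel. Transmembrane and fibril-associated collagens include types made by neurons and glia.

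The mice were 129xC57BL/6 hybrid males aged 2 to 3 months, and the lateral amygdala is the nucleus through which sensory input enters fear learning. The 3 groups had 2 libraries each and carry the names control, scrambled siRNA (shuffled small interfering RNA) and Baf53b siRNA (one against Actl6b, which encodes the neuronal chromatin remodelling subunit BAF53b). Per the design text, injection of the siRNA against BAF53b followed training by 1 day. No such day is given for control or scrambled siRNA. Tissue of 4 mice is mentioned in the labels without saying whether a library is a pool, and what the control mice received is not given in the sources used here, so the p-values measure only the spread between these libraries.

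The summed FPKM of genes ranged from 609850 to 644450 per library. Read as counting error alone, deposited intervals with a lower bound above 0 would correspond to 6.42 M to 10.7 M fragments, where M stands for 1e6. That number is not the sequenced depth. FPKM divides fragment numbers by transcript length and by library size, so levels of different genes can be set side by side, while an RNA that takes many fragments in 1 library lowers the others there. Actl6b, the target, stood at 42.9 and 44.1 FPKM in control, 43.8 and 43.9 with scrambled siRNA, and 42.8 and 39.6 in the libraries labelled Baf53b siRNA, so its RNA does not check those labels. Mitochondrial genes took shares of summed FPKM of 19.4% and 29.5% in control, 15.0% and 26.9% with scrambled siRNA and 19.3% and 22.8% with Baf53b siRNA.

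Sequences at an annotated start of 3 members are shown, for the dominant collagen and for fibrillar members whose levels are compared further on. They are the 250 bases before the RefSeq start on build GRCm38.p6, plus strand, 5′ to 3′, of Col25a1 (chr3:130180595-130180844), the most abundant member, of Col3a1 (chr1:45311288-45311537), the classical scar and fibroblast collagen, and of Col27a1 (chr4:63215162-63215411), a fibrillar member. The Col25a1 and Col27a1 windows lie inside the deposited genes, which begin at 130131501 and 63214004, so they belong to a RefSeq start downstream of the deposited one. Capitals mark 3 promoter motifs, searched on both strands and not overlapping each other here. The first is the CCAAT box, spelled by its name. The second is the TATA box, searched as TATAAA. The third is the GC box bound by SP1 family factors, searched as GGGCGG.
Col25a1: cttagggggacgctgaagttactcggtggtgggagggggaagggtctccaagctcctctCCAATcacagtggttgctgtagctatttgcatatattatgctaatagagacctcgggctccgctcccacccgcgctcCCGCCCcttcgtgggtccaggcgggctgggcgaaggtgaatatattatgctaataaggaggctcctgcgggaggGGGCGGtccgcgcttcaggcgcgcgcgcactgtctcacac
Col3a1: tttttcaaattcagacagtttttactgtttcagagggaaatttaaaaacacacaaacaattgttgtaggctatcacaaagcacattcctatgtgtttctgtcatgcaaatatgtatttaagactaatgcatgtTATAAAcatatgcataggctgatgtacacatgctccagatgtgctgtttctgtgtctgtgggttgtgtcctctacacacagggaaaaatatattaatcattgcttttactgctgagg
Col27a1: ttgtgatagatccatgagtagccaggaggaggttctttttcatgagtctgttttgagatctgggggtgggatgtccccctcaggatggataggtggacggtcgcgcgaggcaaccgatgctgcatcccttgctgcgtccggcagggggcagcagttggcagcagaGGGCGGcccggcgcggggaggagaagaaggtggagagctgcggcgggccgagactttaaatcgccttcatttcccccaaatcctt
The Col25a1 window holds 1 CCAAT match and 2 GC box matches, the Col27a1 window holds 1 GC box match, and the Col3a1 window holds a TATAAA match and neither of the others. RefSeq windows were matched for 35 of the 44 members and gave 38 starts. GGGCGG occurred in 22 of these (57.9%), against 32.7% of all 32817 windows of the same length. CCAAT occurred in 34.2% of collagen windows against 33.8% of all, and TATAAA in 13.2% against 12.4%. These matches are descriptions of letters, and no binding was measured.

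The collagens of the lateral amygdala were mostly low, and 1 gene dominated. Col25a1, a transmembrane collagen made by neurons, averaged 32.1 FPKM over the 6 libraries and took 30.6% to 43.7% of all collagen FPKM in a library. Its lowest library, at 27.4 FPKM, lay above the highest library of every other member. The next levels were those of the type IV chains Col4a2 (mean 6.23 FPKM) and Col4a1 (5.94), then Col6a1 (4.64), Col16a1 (4.63), Col23a1 (4.39), Col12a1 (3.99), Col9a2 (3.54), Col26a1 (3.21), Col19a1 (2.86), Col9a3 (2.46), Col11a2 (2.28), Col6a2 (1.69), Col27a1 (1.16) and Col5a1 (1.12). After Col25a1, the libraries of each member overlapped those of the next in this order.

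These 15 members reached a mean of 1 FPKM and were tested, which are 3 fibrillar, 2 basement membrane and 10 other collagens. The remaining 29 were below it, and 14 of them were under 0.2 FPKM. Just under the limit were Col15a1 (0.864), Col8a1 (0.791), Col6a3 (0.766) and Col11a1 (0.731), and the lowest member was Col4a4 at 0.0356. The lower bound of the deposited interval was 0 in at least 1 library for 22 members, none of them among the 15 tested, and in every library for 12. By class, fibrillar collagens made up 8.22% of collagen FPKM, basement membrane collagens 15.9% and the others 75.9%.

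**Figure D1:**
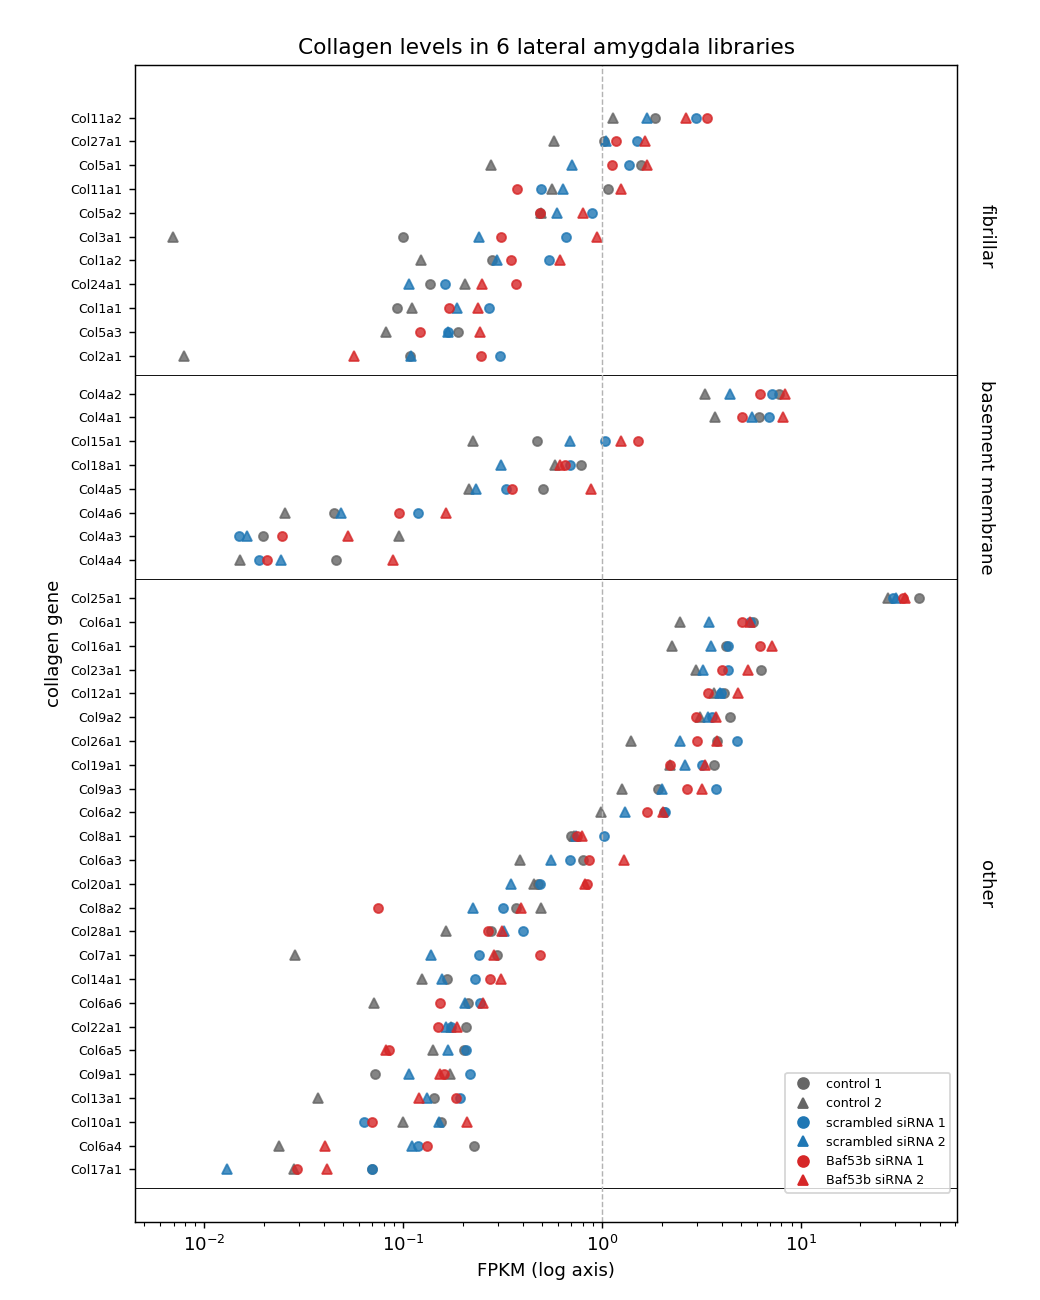
FPKM of each of the 44 collagen genes (log axis) in each library, by class; colour is the group, circles are replicate 1 and triangles replicate 2, and the dashed line is the mean of 1 FPKM needed for testing. Col25a1 lies apart at 27.4 to 39.6 FPKM, types I and III sit below 1 FPKM, and many members have their lowest value in control replicate 2 (grey triangle).

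Among fibrillar collagens, the classical scar types I and III were at low levels in this tissue. Col3a1, the type III chain of distensible tissues, stood at 0.10 and 0.00692 FPKM in control, 0.664 and 0.242 with scrambled siRNA and 0.311 and 0.947 with Baf53b siRNA. Col1a2, a chain of type I, stood at 0.279 and 0.123, 0.544 and 0.295, and 0.351 and 0.615 FPKM in the same order. Col1a1, the other type I chain, stood at 0.0937 and 0.110, 0.270 and 0.186, and 0.170 and 0.238 FPKM. For these 3 genes all 4 siRNA libraries lay above both controls, and the siRNA groups overlapped each other. Their means are below the 1 FPKM needed for the main test, however. Fitted without a filter on low values, none of Col1a1, Col1a2 and Col3a1 passed in any comparison. For Baf53b siRNA against control the limma adjusted p was 0.817 for Col3a1, 0.972 for Col1a2 and 0.869 for Col1a1. The deposited intervals of Col1a1 began at 0 in every library and those of Col3a1 in every library but Baf53b siRNA replicate 2. Those of Col1a2 began at 0 in both controls and in Baf53b siRNA replicate 1.

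Summed, types I and III came to 0.473 and 0.240 FPKM in control, 1.48 and 0.724 with scrambled siRNA and 0.832 and 1.80 with Baf53b siRNA. This sum was chosen after the values of its genes were seen, so its order of libraries adds nothing to theirs. The log2 ratio of the group means was 1.89 for Baf53b siRNA over control, 1.63 for scrambled siRNA over control and 0.26 for Baf53b over scrambled siRNA. With each library left out in turn these ranged from 1.22 to 2.46, from 1.02 to 2.2 and from -0.40 to 0.86. Both ratios over control divide by a very low sum of genes with wide deposited intervals, which leaving out libraries does not address. Read as counting error alone, the control intervals would correspond to 3.03 and 0.877 fragments for Col1a2 and 0.304 and 0.00228 for Col3a1. For Col1a1 the numbers were 0.239 and 0.399. Such numbers cannot be fragment counts and describe interval width only. The ratio of Baf53b to scrambled siRNA was negative without Baf53b siRNA replicate 2 (-0.40) or scrambled siRNA replicate 2 (-0.17). With 2 libraries against 2, an exact permutation test cannot give a two-sided p under 0.333, so no test was made of such sums. In a bulk sample, fewer or more cells of a type and less or more RNA per cell cannot be told apart.

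The fibrillar members at higher levels were the minor chains. Col11a2 (chr17:34039437-34066685 on mm10), a chain of type XI known from cartilage and the inner ear, stood at 1.86 and 1.14 FPKM in control, 2.98 and 1.68 with scrambled siRNA and 3.36 and 2.66 with Baf53b siRNA. Col27a1 (chr4:63214004-63334991), a fibrillar type best known from cartilage, stood at 1.03 and 0.572, 1.5 and 1.05, and 1.18 and 1.64 FPKM in the same order. Col5a1 (chr2:27886425-28039514), the type V chain that starts fibrils of type I, stood at 1.57 and 0.277, 1.36 and 0.708, and 1.12 and 1.69 FPKM. Col27a1 was above both controls in all 4 siRNA libraries, and Col11a2 was above both in the Baf53b siRNA libraries. Col5a1 overlapped between all groups, and its controls lay far apart.

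None of the fibrillar collagens passed the test in any comparison. On the log2(FPKM + 1) scale, Col11a2 was 0.69 above control in Baf53b siRNA (SE 0.25, 95% interval 0.10 to 1.28, limma adjusted p = 0.708) and 0.29 above scrambled siRNA (-0.30 to 0.88). For Col27a1 the differences were 0.42 against control (-0.08 to 0.93) and 0.08 against scrambled siRNA (-0.42 to 0.59). The Col5a1 interval against control reached from -0.43 to 1.22, the widest of the 3. The summed fibrillar level was 6.92 and 3.58 FPKM in control, 9.34 and 5.78 with scrambled siRNA and 8.09 and 10.4 with Baf53b siRNA. Its log2 ratio of group means was 0.82 for Baf53b siRNA over control and 0.42 without control replicate 2. For Baf53b over scrambled siRNA it was 0.29, and -0.02 to 0.68 when each library was left out in turn.

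The basement membrane collagens were led by the type IV chains known from vessel walls. Col4a1 and Col4a2, the chains of the common type IV network, are encoded head to head on chromosome 8, where their annotated starts at 11312826 and 11312805 share 22 bases. Col4a2 stood at 7.82 and 3.31 FPKM in control, 7.18 and 4.43 with scrambled siRNA and 6.25 and 8.36 with Baf53b siRNA. Col4a1 stood at 6.17 and 3.70, 6.94 and 5.67, and 5.05 and 8.13 FPKM. The groups overlapped for both genes, and the 2 controls, like the 2 Baf53b siRNA libraries, lay farther apart than any group means.

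The ratio of Col4a2 to Col4a1 stayed between 0.781 and 1.27, with a median of 1.03, while both levels moved together from library to library. Col4a1 differed by 0.36 from control (-0.29 to 1.00) and by 0.03 from scrambled siRNA (-0.61 to 0.68) in Baf53b siRNA. The Col4a2 differences were 0.42 (-0.43 to 1.27) and 0.31 (-0.55 to 1.16). The limma adjusted p was 1 for both genes in every comparison. The restricted type IV chains Col4a3 to Col4a6, typical of kidney and other specialised membranes, ranged from 0.0150 to 0.884 FPKM over all libraries.

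Col15a1 (chr4:47208161-47313167), an endostatin-bearing collagen between basement membranes and the fibrillar matrix, was too low for the test. It stood at 0.473 and 0.224 FPKM in control, 1.04 and 0.688 with scrambled siRNA and 1.51 and 1.24 with Baf53b siRNA, so that the values of no groups overlapped. The deposited intervals did overlap between all libraries, and began at 0 in both controls and in scrambled siRNA replicate 1. Fitted without a filter on low values it differed by 0.82 between Baf53b siRNA and control, with a limma adjusted p of 0.239. The summed basement membrane level was 15.9 and 8.16 FPKM in control, 16.3 and 11.4 with scrambled siRNA and 14.0 and 19.5 with Baf53b siRNA. The log2 ratio for Baf53b siRNA over control was 0.48, and 0.08 without control replicate 2. For scrambled siRNA over control it was 0.21, and turned to -0.19 without that library.

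**Figure D2:**
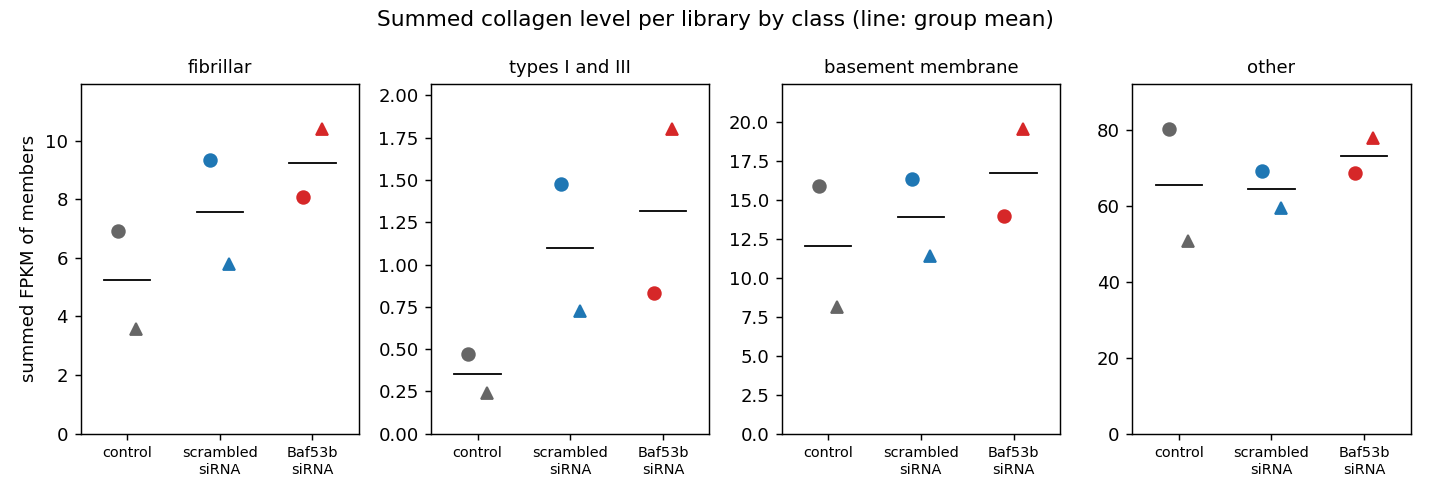
Summed FPKM per library for fibrillar collagens, types I and III alone, basement membrane collagens and other collagens; points are libraries (circle replicate 1, triangle replicate 2) and lines are group means. Types I and III, a sum chosen after the values were seen, have every siRNA library (0.724 to 1.80 FPKM) above both controls. That follows from the same order in each gene of the sum. In the other panels at least 1 siRNA library lies below control replicate 1.

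In the class of other collagens, Col25a1 (chr3:130131501-130599877), whose shed ectodomain is known from amyloid plaques, stood at 39.6 and 27.4 FPKM in control, 29.1 and 30.1 with scrambled siRNA and 32.9 and 33.6 with Baf53b siRNA. The 2 controls held both the highest and the lowest value. Its difference was 0.01 against control (-0.42 to 0.45) and 0.16 against scrambled siRNA (-0.27 to 0.60), and both intervals included 0. Col6a1 (chr10:76708792-76726168), a chain of the beaded filaments around cells and vessels, stood at 5.73 and 2.46, 5.58 and 3.44, and 5.06 and 5.58 FPKM in control, scrambled siRNA and Baf53b siRNA. Its partner Col6a2 was held at 0.332 to 0.402 of the Col6a1 level in all 6 libraries, and Col6a3 at 0.124 to 0.232.

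Col16a1 (chr4:130047840-130099283), a fibril-associated collagen, had the lowest unadjusted p among the 15 tested members in both comparisons with Baf53b siRNA. It stood at 4.23 and 2.24 FPKM in control, 4.32 and 3.55 with scrambled siRNA and 6.26 and 7.18 with Baf53b siRNA. Both Baf53b siRNA libraries lay above the other 4, and the controls overlapped scrambled siRNA. The deposited intervals were wide, however, at 4.08 to 8.45 FPKM in Baf53b siRNA replicate 1 and 2.52 to 6.12 in scrambled siRNA replicate 1. Read as counting error alone they would correspond to 20.4 to 35.0 fragments per library, against 210 to 414 for Col6a1. The mean levels are similar, and the longest Col16a1 transcript is the longer of the pair (5206 against 4100 bases). This gap therefore describes interval width and not numbers of fragments. The difference was 0.90 against control (SE 0.24, 0.33 to 1.48, limma unadjusted p = 0.00751, adjusted p = 0.291). Against scrambled siRNA it was 0.65 (SE 0.24, 0.07 to 1.22, limma unadjusted p = 0.0323, adjusted p = 1). With each library left out in turn it stayed between 0.56 and 1.25 against control and between 0.53 and 0.76 against scrambled siRNA, and in none of these fits did it pass the test.

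Col12a1, another fibril-associated collagen at a similar mean level, differed by 0.05 against control (-0.38 to 0.48) and by 0.04 against scrambled siRNA (-0.38 to 0.47). Set against it within a library, the Col16a1 level was 1.02 and 0.610 times the Col12a1 level in control. It was 1.09 and 0.906 times that level in scrambled siRNA and 1.83 and 1.49 times in Baf53b siRNA. Col12a1 was chosen after its values were seen, and its highest library was only 1.41 times its lowest. These ratios therefore largely repeat the Col16a1 levels and are no separate evidence. Col9a3 (chr2:180597790-180622189), a chain of type IX collagen on the surface of thin fibrils, stood at 1.92 and 1.26 FPKM in control, 3.74 and 2.00 with scrambled siRNA and 2.68 and 3.17 with Baf53b siRNA. All siRNA libraries were above both controls. The difference was 0.61 for Baf53b siRNA (0.01 to 1.21, limma adjusted p = 0.975) and 0.55 for scrambled siRNA (-0.05 to 1.16, limma adjusted p = 1).

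The proportion of the type IX chains varied between libraries. Col9a3 was 0.434 and 0.403 of the Col9a2 level in control, 1.04 and 0.582 with scrambled siRNA and 0.905 and 0.848 with Baf53b siRNA. The remaining chain, Col9a1, did not exceed 0.218 FPKM. Among low type IV chains, the ratio of Col4a6 to Col4a5 varied more, from 0.0887 to 0.361, and no test compared these ratios. Of the remaining tested members, Col23a1, Col26a1 and Col19a1 differed from control by 0.07, 0.37 and -0.07 in Baf53b siRNA, with intervals that all included 0. The summed level of the class was 80.3 and 50.8 FPKM in control, 69.4 and 59.6 with scrambled siRNA and 68.7 and 77.9 with Baf53b siRNA. The log2 ratio for Baf53b siRNA over control was 0.16, and -0.13 without control replicate 2.

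The first question of the design is what Baf53b siRNA does beyond a scrambled sequence. Against scrambled siRNA, 0 of the 15 tested collagens passed the limma test at an adjusted p of 0.05, where 18 of 14664 genes did (0.123%), all of them higher. At an unadjusted p under 0.05 there was 1 collagen (Col16a1) and 2.67% of all genes on the higher side. The difference was above 0 for 12 of 15 collagens, against 50.9% of all genes. The median collagen difference was 0.10, against 0.00 for all genes. Without scrambled siRNA replicate 1 the collagen median was 0.34, against 0.07 for all genes. Without scrambled siRNA replicate 2 it was -0.06, with 7 of 15 above 0, so its sign rests on that library. The median of all genes moved in the same direction, from 0.00 to -0.06. That was a smaller shift than the one of collagens from 0.10 to -0.06. Without Baf53b siRNA replicate 2 the collagen median was 0.01, with 8 of 15 above 0, against 0.04 for all genes. The groups did not overlap, with Baf53b siRNA higher, for 2 of 15 collagens, against 13.1% of all genes.

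The second comparison sets Baf53b siRNA against control. What the control mice received is not given, so whether it isolates the sequence, the injection or both is not known. Again 0 of 15 collagens passed, against 181 of 14664 genes (1.23%), all of them higher. At an unadjusted p under 0.05 there were 3 collagens (Col16a1, Col11a2 and Col9a3), all higher, against 4.75% of genes. Of the 15 collagens 13 were above 0, against 60.7% of all genes, with a median of 0.37 against 0.04. No overlap on the higher side was seen for 4 of 15 collagens (Col11a2, Col27a1, Col16a1 and Col9a3), against 16.7% of genes.

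The third comparison sets scrambled siRNA against control. Whether it bears on the injection, the siRNA as such or both depends on what the control mice received, which is not given. With limma 0 of 15 collagens and 0 of 14664 genes (0%) passed. At an unadjusted p under 0.05 there were 0 collagens and 298 genes on the higher side (2.03%). Of the collagens 12 of 15 were above 0, against 63.6% of all genes, and the median was 0.15 against 0.04. Col27a1 and Col9a3 did not overlap between the groups, 2 of 15 against 12.7% of genes. These 3 comparisons share their libraries in pairs, so their directions are not independent of each other.

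**Figure D3:**
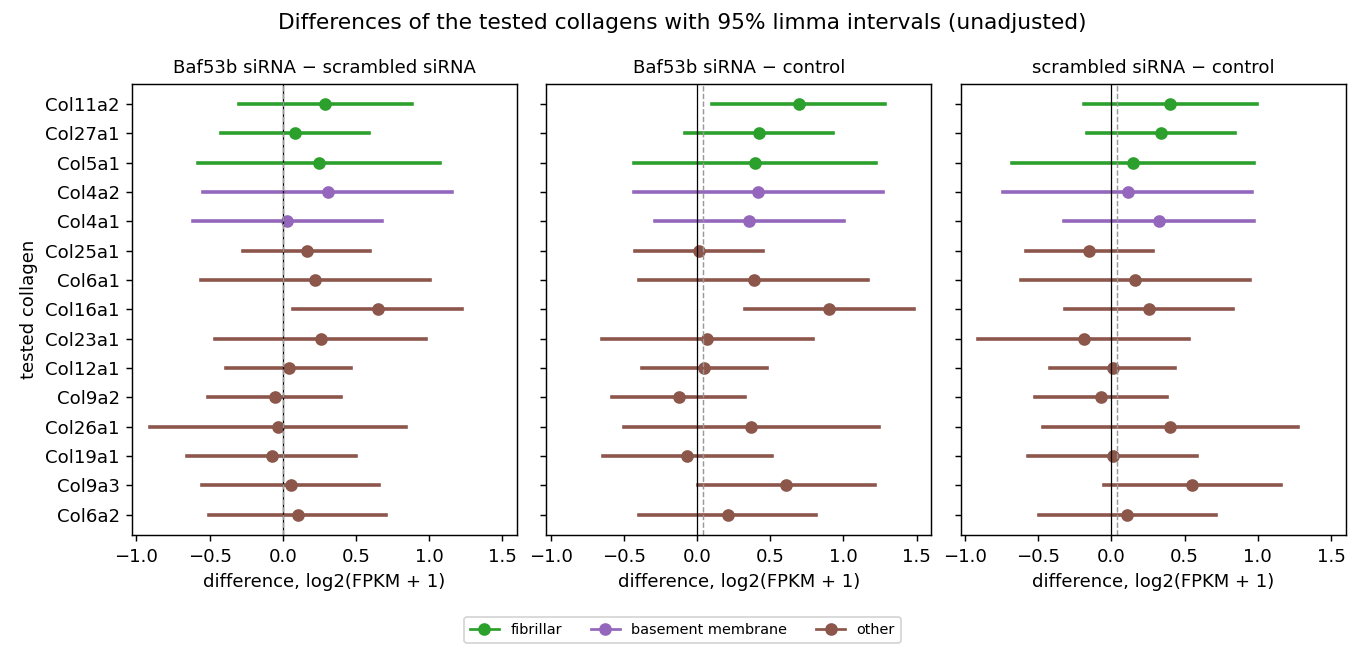
Difference of each of the 15 tested collagens on the log2(FPKM + 1) scale in the 3 comparisons, with 95% limma intervals before adjustment; colour is the class and the dashed line the median of all genes. Col16a1 is the member whose interval is above 0 in both panels with Baf53b siRNA (0.65 and 0.90), and in the panel of scrambled siRNA against control every interval includes 0.

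The median collagen difference from control changed sign with single libraries left out. Control replicate 2 was the lowest of the 6 libraries for 12 of the 15 tested collagens and 27 of all 44, where 35.6% of all tested genes had their lowest value there. Without it the median collagen difference between Baf53b siRNA and control was -0.10, with 5 of 15 above 0. Between scrambled siRNA and control it was -0.20, with 4 of 15. For all genes these medians were -0.01 and -0.02. Single members kept a positive difference between Baf53b siRNA and control without control replicate 2, among them Col16a1 (0.56), Col11a2 (0.48) and Col9a3 (0.42). Without control replicate 1 the collagen medians were 0.66 and 0.60, with all 15 collagens above 0 in both, against 0.10 and 0.10 for all genes. Without scrambled siRNA replicate 1 the median for scrambled siRNA against control was -0.09, with 7 of 15 above 0, against -0.02 for all genes.

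Within each group, 1 library was above the other for nearly all tested collagens. Control replicate 1 was above replicate 2 for 15 of 15 tested collagens, scrambled siRNA replicate 1 above replicate 2 for 14, and Baf53b siRNA replicate 2 above replicate 1 for 14. The median difference of replicate 2 from replicate 1 was -0.61, -0.33 and 0.26 for collagens in control, scrambled siRNA and Baf53b siRNA, against -0.11, -0.13 and -0.07 for all tested genes. Collagen transcripts are long, with a median longest transcript of 5658 bases for the tested members against 3151.5 for all tested genes. Tested genes of 6000 bases or more differed by -0.14, -0.12 and -0.02 between replicates. The mitochondrial share was higher in replicate 2 of each group. Rescaled to nuclear genes, 11 of 15 collagens were above 0 against control in Baf53b siRNA, with a median of 0.32 against -0.03 for all genes. The part of the mitochondrial share or of the dissection in these shifts was not tested.

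Among all 44 members, 8 had every siRNA library above both controls. They were the fibrillar Col1a1, Col1a2, Col3a1 and Col27a1, the basement membrane Col15a1 and Col4a6, and Col9a3 and Col8a1, the latter a short-chain collagen of vessel walls. Of all genes above 0 in at least 1 library 6.78% showed this pattern, and 7.36% of the tested genes against 2 of 15 tested collagens. Of the 8 genes 4 are fibrillar, out of 11 fibrillar members. Of all 44 members, 10 did not overlap between Baf53b and scrambled siRNA with Baf53b siRNA higher, against 14.9% of genes above 0, and 2 with it lower, against 8.77%. Between Baf53b siRNA and control these were 14, against 17.6%, and 1, against 7.53%. Between scrambled siRNA and control they were 11, against 12.6%, and 2, against 8.06%. Reads of Col18a1, Col10a1 and Col20a1 may be split with the overlapping genes Slc19a1, Nt5dc1 and 9230112E08Rik, so their levels are uncertain.

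Genes that make, bind and remodel collagen were described from lists of the pathway. In these lists 1 receptor gene passed, in Baf53b siRNA against control, where 1.23% of all genes did. A single call over these lists is not read as a change of the pathway. Of 32 processing enzymes and chaperones 23 were tested and none passed in any comparison, with medians of 0.16 against scrambled siRNA and 0.20 against control in Baf53b siRNA. The most abundant was Mia3, whose product loads bulky collagen cargo at the endoplasmic reticulum, at 76.2 to 94.3 FPKM over the libraries. Next came Ppib, a prolyl isomerase that helps collagen fold, which stood at 46.9 and 51.7 FPKM in control, 51.4 and 52.3 with scrambled siRNA and 58.9 and 58.9 with Baf53b siRNA. Of 19 basement membrane partners such as laminins and nidogens 10 were tested and none passed. Sparc, a glycoprotein that binds type IV collagen, differed from control by 0.45 in Baf53b siRNA (limma adjusted p = 0.578).

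Among 10 collagen receptors 4 were tested, and Lair1, an inhibitory collagen receptor of immune cells, rose against control in Baf53b siRNA. It stood at 4.00 and 4.37 FPKM in control, 6.10 and 6.35 with scrambled siRNA and 9.43 and 9.84 with Baf53b siRNA, so that no groups overlapped. The difference was 1.04 against control (SE 0.14, limma adjusted p = 0.0200) and 0.56 against scrambled siRNA (adjusted p = 0.533). Of 15 metalloproteinases and their inhibitors 9 were tested and none passed, and Timp2, the most abundant inhibitor, differed from control by 0.01. Of 17 small proteoglycans and fibril partners with a value 6 were tested and none passed. Fn1, the fibronectin gene, differed from control by 0.65 in Baf53b siRNA (limma adjusted p = 0.692), and Dcn, which encodes the fibril-coating decorin, by 0.28.

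Markers of the cells that make collagen were set beside these levels. All 17 endothelial markers were tested and none passed in any comparison. Their summed level was 117 and 104 FPKM in control, 138 and 125 with scrambled siRNA and 141 and 153 with Baf53b siRNA, with all 4 siRNA libraries above both controls. Type IV collagens summed to 14.6 and 7.36 FPKM in control, 14.6 and 10.4 with scrambled siRNA and 11.8 and 17.7 with Baf53b siRNA, so their groups overlapped and their libraries lay farther apart. Cldn5, a tight junction gene of brain endothelium, stood at 9.06 and 4.02, 7.92 and 6.60, and 7.86 and 15.8 FPKM. This single marker of the 17 was chosen after its values were seen and does not stand for the list. Of 14 markers of pericytes and smooth muscle 7 were tested and none passed, and their sum ranged from 21.4 FPKM in control replicate 2 to 30.8 in Baf53b siRNA replicate 2. The part of vessel content in the collagen levels was not tested.

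Markers of meningeal and perivascular fibroblasts spanned a wide range of levels. Of 19 such markers with a value 8 were tested, and 4 averaged under 0.1 FPKM. Lum, Ogn, Slc6a13 and Aldh1a2 were at or under 0.335 FPKM in every library. Other markers of the list were higher. Dcn ranged from 2.11 to 6.39 FPKM and Igf2 from 1.22 to 3.46. Mgp, which encodes matrix Gla protein, ranged from 2.53 to 6.40 FPKM, with all 4 siRNA libraries above both controls, and differed from control by 0.61 in Baf53b siRNA (limma adjusted p = 1). The summed level, mostly of genes that other brain cells also express, was 93.5 and 90.2 FPKM in control, 115 and 104 with scrambled siRNA and 114 and 112 with Baf53b siRNA. The member that passed was Serping1, a complement inhibitor gene that is not restricted to fibroblasts. It rose by 1.86 against control in Baf53b siRNA (SE 0.20, limma adjusted p = 0.00913), where 1.23% of all genes passed. Of 10 choroid plexus markers 2 were tested, and their sum was highest in scrambled siRNA replicate 1 at 14.5 FPKM against 7.02 to 9.48 elsewhere.

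Markers of reactive astrocytes and microglia rose with Baf53b siRNA, and those of other glia were mostly not called. Of 9 tested reactive astrocyte markers 2 passed against scrambled siRNA (Gfap and C3), where 0.123% of all genes did, and 7 against control, where 1.23% did, with summed levels of 56.2 and 62.3 FPKM in control, 110 and 95.8 with scrambled siRNA and 302 and 331 with Baf53b siRNA. Of 12 microglia and macrophage markers 9 passed against control, beside the same 1.23% of all genes, and 0 against scrambled siRNA, with sums of 290 and 277, 520 and 509, and 968 and 779 FPKM. Of 10 general astrocyte markers 1 (Aqp4) passed against control and 0 against scrambled siRNA, with medians of 0.07 and 0.01. None of 8 oligodendrocyte markers and 7 tested precursor markers passed. Gfap, the intermediate filament gene of reactive astrocytes, was 3.23 above control on the log2 scale (limma adjusted p = 0.000553). The lists were chosen with earlier results of these data known, and whether the glial change has a part in the levels of Col16a1 or of types I and III was not tested.

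**Figure D4:**
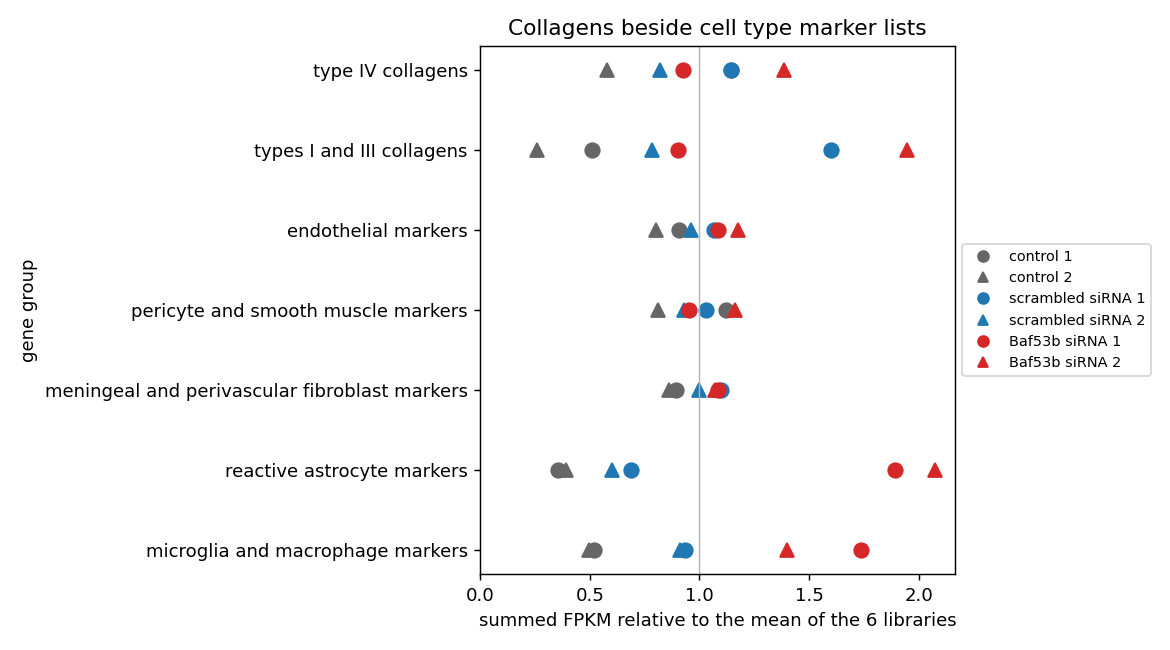
Summed FPKM of type IV collagens, of types I and III and of 5 marker lists in each library, divided by the mean of the 6 libraries (linear axis). Type IV collagens and the endothelial list both have control replicate 2 lowest and Baf53b siRNA replicate 2 highest, with a wider spread for type IV, while the reactive astrocyte and microglia lists separate the 3 groups without overlap.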

How the data were processed

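RNA of 6 lateral amygdala libraries (3 groups of 2) was selected with oligo-dT and sequenced from both ends with a stranded kit, per the labels' protocols. The authors deposited FPKM per gene with a lower and an upper bound, per the file headers. The submitters' processing notes name bcl2fastq 2.19.1.403, TopHat2 2.1.1, Cufflinks 2.2.1 and mm10; for annotation, strand setting and other options the sources used here say nothing. An abundant RNA lowers the FPKM of all others.

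Values were taken as log2(FPKM + 1), a pseudocount of 1, which understates changes of low genes. The 92 spike-in entries, 4 genes with a failed estimate, 353 small RNA genes and genes under a mean of 1 FPKM were left out, 48 gene IDs with several entries were summed, and 14664 genes were tested. GENCODE M21 matched 50160 IDs and gave gene types and transcript lengths; coordinates are those deposited. Group means over all 6 libraries were fitted in R 4.3.3 with limma 3.58.1 (trended eBayes, 3 residual degrees of freedom, prior 3.99), two-sided, with Benjamini-Hochberg adjustment over all genes at 0.05. The script was tested on simulated data. Implied fragment numbers take the half-width of a deposited interval as 2 standard errors of a plain count. They are an index of interval width, which need not hold counting error only, and are not counts of fragments. Class sums were compared as log2 ratios of group means.

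Members named with all values were those passing the test, the 3 most abundant of each class, tested members without overlap that differed by at least 0.3 between Baf53b and scrambled siRNA or between scrambled siRNA and control, and partner chains of types IV and I. In other lists, genes that passed or the 2 most abundant were eligible to be named; Col3a1, Col12a1, Cldn5, Mgp, Igf2, Lum, Ogn, Slc6a13, Aldh1a2 and single values of other members were chosen after their values were seen. The members and lists were chosen with earlier results of these data known. Alternatives were pseudocount 0.1, no filter, a mean of 5 FPKM, and nuclear and quantile scaling. Further ones were the compared groups alone, a replicate block and each library left out. The sum of types I and III and its alternatives were chosen after seeing the data.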

Additional observations from a re-analysis of the deposited data

Results flagged for a closer look

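The tables hold 92 entries of synthetic spike-in RNA. They are absent from the labels' protocols and entered no comparison of collagens. Their share of the FPKM was 0.0191% and 0.0195% in control. It was above both in scrambled siRNA, at 0.0340% and 0.102%, and in Baf53b siRNA, at 0.755% and 0.128%.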

How the results depend on the processing

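No collagen passed the limma test in any of the 13 alternatives, and the lowest adjusted p was 0.0801, for Col16a1 against control without control replicate 1. A mean of 5 FPKM left 3 collagens to test. Of all genes, 18 passed between Baf53b and scrambled siRNA, but 1 with a pseudocount of 0.1, 0 without a filter, 8 at a mean of 5 FPKM and 4 to 24 with 1 library left out. The 181 genes against control became 42 without a filter, 71 at a mean of 5 FPKM and 34 to 139 with 1 library left out. For scrambled siRNA against control the count of 0 became 1 with the compared groups alone and 0 to 7 with 1 library left out. Where 1 library was left out, the lone library of its group was assumed to vary like the others. The replicate block gave 13, 188 and 0 genes and changed no call of a collagen (lowest adjusted p 0.90, 0.178 and 0.992). Deviations of same-numbered libraries correlated across genes at 0.183 to 0.390, but with 2 numbers the labels do not pair the libraries. Members under 1 FPKM have low values with often wide intervals, so types I and III were left out of the main test. In the fit without a filter none of their genes passed.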
